A study of Mus musculus with 12 samples.

Results

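The 9 genes described here encode secreted proteins of fat, or adipokines, other than TNF and the interleukins, namely *Lep* (leptin), *Adipoq* (adiponectin), *Retn* (resistin), *Cfd* (complement factor D, also called adipsin), *Rbp4* (retinol-binding protein 4), *Rarres2* (chemerin), *Nampt* (visfatin), *Apln* (apelin) and *Itln1* (omentin). They were matched by gene symbol among the 22947 genes of the table, and the FPKM of their 37 annotated or annotation-derived transcripts were summed per gene, where FPKM is the fragment count scaled to transcript length and to the size of the library. RNA was sequenced from whole epididymal white adipose tissue (eWAT) of individually housed male C57BL/6J mice, with 3 mice in each of 4 groups. From 5 weeks of age, the groups were fed for 16 weeks with a normal diet (ND), a high-fat diet (HFD), the HFD with 1.5% by weight of an ethanol extract of chrysanthemum leaf (CLE), or the HFD with 0.003% by weight of the flavonoid luteolin (LU), so the CLE and LU groups ate the high-fat diet as well. All mice were 21 weeks old at the end and were fasted overnight, and the sequenced mice were chosen by the authors as representative of larger groups. The column used for ND mouse 4 has a misspelled header and was assigned to that mouse by inference.

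Adipokines carry information from fat to other organs. Only mRNA in eWAT was measured in the data described here, and the proteins in fat or blood were not. Leptin is released in proportion to fat stores and restrains appetite through its receptor in the brain, whereas adiponectin circulates at high levels in lean animals, falls in obesity and promotes insulin sensitivity and fatty acid oxidation. Resistin in the mouse is made by white adipocytes, adipsin is the serine protease that starts the alternative complement pathway, and retinol-binding protein 4 carries vitamin A in blood.

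On GRCm38, *Lep* (ENSMUSG00000059201) lies on chromosome 6 at 29060220 to 29073877 on the plus strand, and *Adipoq* (ENSMUSG00000022878) on chromosome 16 at 23146536 to 23158028 on the plus strand. The DNA just before their first exons is shown because the mRNAs of these hormones moved in opposite directions with the diet. That of *Rbp4* is shown because its FPKM lay almost wholly on the transcript from the inner of its 2 starts. Each window of 120 bases ends next to the most upstream position that the deposited table, GENCODE or RefSeq gives for that start, is read 5′ to 3′ on the strand of the gene, and comes from the RefSeq promoter table for GRCm38.p6, in which 8 of the 9 genes were found. Capitals mark matches, on either strand, to TTNNGNAA (a C/EBP-type sequence), CCAAT or TATAAA.
*Lep*, chr6:29060100-29060219, plus strand: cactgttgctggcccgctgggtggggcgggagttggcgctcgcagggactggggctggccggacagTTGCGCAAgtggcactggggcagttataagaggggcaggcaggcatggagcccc
*Adipoq*, chr16:23146416-23146535, plus strand: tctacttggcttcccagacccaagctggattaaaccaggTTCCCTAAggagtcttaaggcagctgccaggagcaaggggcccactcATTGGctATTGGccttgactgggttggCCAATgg
*Rbp4*, inner start, chr19:38124829-38124948, minus strand: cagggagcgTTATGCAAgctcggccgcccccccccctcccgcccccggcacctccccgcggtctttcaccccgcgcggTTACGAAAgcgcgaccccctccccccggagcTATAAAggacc
*Rbp4*, outer start, chr19:38125322-38125441, minus strand: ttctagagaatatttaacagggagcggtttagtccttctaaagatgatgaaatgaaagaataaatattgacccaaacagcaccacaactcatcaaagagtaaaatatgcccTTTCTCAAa
TTNNGNAA was found in 18% of all 32851 promoter windows of this length, CCAAT in 21.3% and TATAAA in 6.3%, and no match overlapped another. A C/EBP-type match stood in each of the 4 windows, at 54 bases before the window's end in *Lep* and at 81 bases in *Adipoq*. CCAAT was met only in the *Adipoq* window among the 4, at 34, 27 and 7 bases before its end, and TATAAA only in the window of the inner *Rbp4* start, at 11 bases. The inner window lies in an intron of the longer *Rbp4* transcript, and its GC content was 72.5% against 34.2% at the outer start. These matches describe letters in the windows, and binding of a factor there was not measured.

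The totals over genes lay between 435094 and 455040 FPKM per library, and Pearson's r between mice of a group, across genes, between 0.978 and 0.991. Read counts cannot be had from FPKM, and how many fragments lie behind a value is unknown. Of the 9 genes, 8 passed the filter of at least 1 FPKM in at least 3 libraries, with which 12775 genes were tested. A call needed a limma p under 0.05 after Benjamini-Hochberg adjustment together with a fold change over 1.5. Fold changes are of FPKM + 1 on a log2 scale, on which changes of low genes appear too small. Labels of 4 libraries carry the letter R (LU mouse 2, CLE mouse 4 and ND mice 3 and 4), HFD has none, and the labels do not say what it marks. Values without these libraries are given below.

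*Lep* mRNA rose in eWAT of HFD-fed mice and was lower under both supplements. Its FPKM were 194, 248 and 302 in the ND mice, 1172, 1271 and 1291 in the HFD mice, 497, 586 and 697 in the CLE mice and 500, 410 and 806 in the LU mice. Every HFD mouse lay above all others and every ND mouse below all others, while the CLE and LU values overlapped, with LU mouse 8 the highest of them. The means were 248 ± 53.7 (SD, n = 3) in ND, 1245 ± 63.4 in HFD, 593 ± 101 in CLE and 572 ± 207 in LU. HFD against ND gave a log2 fold change of 2.34 (SE 0.23, limma adjusted p = 9.68e-06), a ratio of means of 5.02. Against HFD, *Lep* fell by 1.08 with CLE (adjusted p = 0.00388) and by 1.18 with LU (adjusted p = 0.00349) on the log2 scale. It remained above ND in both, by 1.26 in CLE (adjusted p = 0.0151) and by 1.17 in LU (adjusted p = 0.00792). The CLE call was lost in 5 of 28 other settings, among them without CLE mouse 11 (1.14, adjusted p = 0.0564) or ND mouse 2 (1.10, adjusted p = 0.0535). Of all genes, 127 and 124 were called without these mice, against 372 with all mice. The LU call was lost in 1 setting, without the letter R libraries, which leave 1 ND mouse (1.56).

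**Figure D1:**
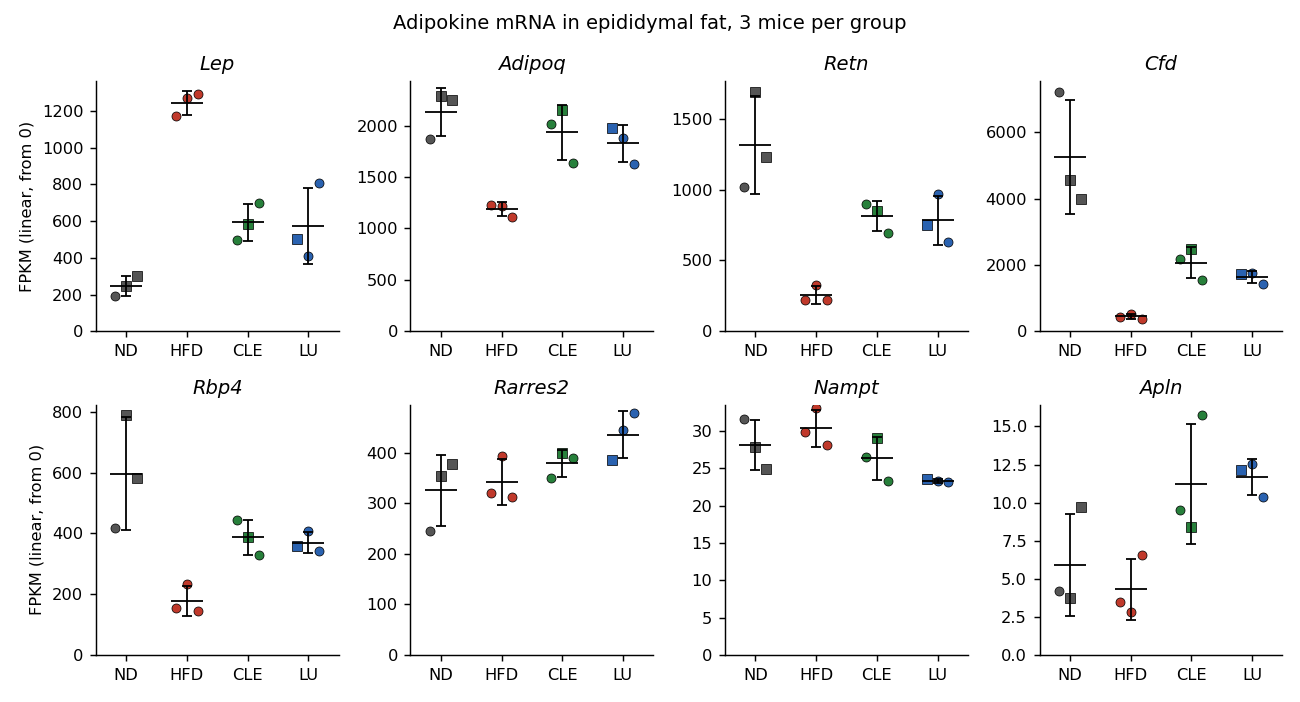
FPKM (linear axes from 0) of the 8 tested adipokine genes in each mouse of the ND, HFD, CLE and LU groups. Points are mice (squares for libraries with the letter R), horizontal bars the mean and whiskers the SD of 3 mice. The HFD mice stand apart from the other groups in *Lep*, *Adipoq*, *Retn*, *Cfd* and *Rbp4*, but not in *Rarres2*.

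*Adipoq*, the gene of the insulin-sensitizing hormone adiponectin, moved the other way and by less. Its FPKM were 1866, 2292 and 2250 in ND, 1231, 1220 and 1107 in HFD, 2011, 2156 and 1633 in CLE and 1975, 1883 and 1629 in LU. All HFD mice were below all other mice, and the ND, CLE and LU mice overlapped. The means were 2136 ± 235, 1186 ± 68.4, 1933 ± 270 and 1829 ± 179 (SD, n = 3). *Adipoq* fell by 0.84 with HFD on the log2 scale (SE 0.12, adjusted p = 0.000191), a ratio of means of 0.555. It rose by 0.70 with CLE (adjusted p = 0.00137) and by 0.62 with LU (adjusted p = 0.00409) against HFD. The LU difference is a fold change just over 1.5, and without HFD mouse 18 (0.57), without LU mouse 2 (0.56) without all letter R libraries (0.56) or with the letter R as a covariate and all 12 libraries (0.54) it was under this threshold. Neither supplement group differed from ND past the threshold, at -0.15 in CLE (adjusted p = 0.51) and -0.22 in LU (adjusted p = 0.274). In plasma, the authors found adiponectin similar in CLE and HFD and higher in LU than in HFD.

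The ratio of *Lep* to *Adipoq* FPKM, computed within each library, put both genes on one axis. It was 0.104, 0.108 and 0.134 in ND, 0.953, 1.04 and 1.17 in HFD, 0.247, 0.272 and 0.427 in CLE and 0.253, 0.218 and 0.495 in LU. *Lep* was thus near the FPKM of *Adipoq* in HFD mice and well below it in all others, and CLE and LU mice lay between the ND and HFD mice with no overlap with either. The means were 0.115 ± 0.0163, 1.05 ± 0.107, 0.315 ± 0.0976 and 0.322 ± 0.151 (SD, n = 3). CLE mouse 11 and LU mouse 8 had the highest ratio of their groups, with the most *Lep* and the least *Adipoq*.

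**Figure D2:**
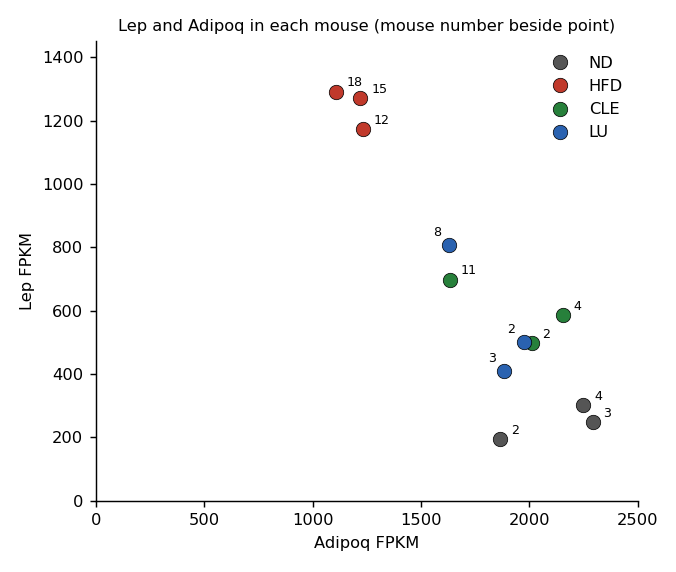
*Lep* against *Adipoq* FPKM, 1 point per mouse with the mouse number beside it, linear axes from 0. HFD mice lie at high *Lep* (1172 to 1291) and low *Adipoq* (1107 to 1231), ND mice at low *Lep* (194 to 302), and the CLE and LU mice lie between them on the *Lep* axis.

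*Retn* mRNA (chromosome 8, 3655770 to 3660110, plus strand) fell strongly with HFD. The authors reported the opposite for resistin in plasma, which was raised with HFD and reduced with CLE. Its FPKM were 1018, 1692 and 1233 in ND, 219, 326 and 217 in HFD, 897, 851 and 695 in CLE and 750, 972 and 627 in LU. ND mice were highest, HFD mice lowest and the supplement groups between them, with no overlap of ND or HFD with any other group. The log2 fold change with HFD was -2.36 (SE 0.22, limma adjusted p = 7.44e-06), from a mean of 1314 ± 344 to 254 ± 62.4 (SD, n = 3), a 5.17-fold lower mean. *Retn* rose by 1.69 with CLE (adjusted p = 0.000185, mean 814 ± 106) and by 1.62 with LU (adjusted p = 0.000483, mean 783 ± 175) against HFD. Against ND, it was lower by 0.74 in LU (log2 fold change -0.74, adjusted p = 0.0494), a call lost under 16 of 28 other settings, while CLE, at -0.67 (adjusted p = 0.097), did not pass.

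*Cfd* (chromosome 10, 79890853 to 79892655, plus strand), whose protease product cleaves complement factor B, had the highest FPKM of the 9 genes in ND and changed most. Its FPKM were 7206, 4560 and 3999 in ND, 425, 532 and 383 in HFD, 2190, 2466 and 1550 in CLE and 1723, 1754 and 1416 in LU. ND mouse 2 was far above the other ND mice, yet all ND mice lay above every other mouse and all HFD mice below. The mean fell from 5255 ± 1713 to 447 ± 76.5 (SD, n = 3) with HFD, 11.8-fold, at a log2 fold change of -3.52 (SE 0.23, limma adjusted p = 7.5e-07). With CLE the mean was 2069 ± 470, 2.2 above HFD on the log2 scale (adjusted p = 4.87e-05), and with LU it was 1631 ± 187, 1.87 above HFD (adjusted p = 0.000255). Both stayed under ND, CLE at a log2 fold change of -1.32 (adjusted p = 0.0143) and LU at -1.65 (adjusted p = 0.00165). The CLE call was lost in a fit of only the groups compared (adjusted p = 0.0948) and with mouse numbers as a replicate block (-1.15, adjusted p = 0.181). Of all 12775 genes, 0 and 2 were called in these fits, against 372 in the main fit. FPKM are per kilobase of transcript, so the levels of genes can be set side by side, and in ND *Cfd* exceeded *Adipoq* in each mouse, by 3.86-, 1.99- and 1.78-fold, whereas in HFD it was 0.345, 0.436 and 0.346 of *Adipoq*.

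*Rbp4* (ENSMUSG00000024990, chromosome 19, 38116629 to 38125281, minus strand) had FPKM of 418, 790 and 581 in ND, 153, 234 and 143 in HFD, 444, 390 and 328 in CLE and 358, 410 and 343 in LU. HFD mice were below all others, and ND mouse 2 overlapped the CLE mice. *Rbp4* fell by 1.74 with HFD on the log2 scale (SE 0.23, limma adjusted p = 9.14e-05), from 597 ± 187 to 177 ± 50.1 (SD, n = 3). It rose by 1.15 with CLE (adjusted p = 0.00285) and by 1.09 with LU (adjusted p = 0.00547), to 387 ± 58.0 and 370 ± 35.2. The differences from ND were -0.59 in CLE (adjusted p = 0.153) and -0.64 in LU (adjusted p = 0.0928). The transcript from the inner start, ENSMUST00000112335, held 97.5% to 99.1% of the *Rbp4* FPKM in every library, and the outer one, ENSMUST00000025951, 0.864% to 2.50%. Liver also makes *Rbp4*. The summed FPKM of 6 liver genes were 13.9 to 34.2 in ND and 1.83 to 11.2 in HFD. They were 7.20 to 27.6 in CLE and 5.02 to 6.35 in LU. *Rbp4* was above this sum in each library. *Ttr*, the partner of *Rbp4* in blood, did not exceed 1.50 FPKM. Among the liver genes, *Alb* and *Serpina1c* were called lower with HFD and higher with CLE, as was *Rbp4*. With LU against HFD, no liver gene was called. The part of liver RNA in the *Rbp4* values was not tested.

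*Rarres2*, the gene of the chemoattractant chemerin (chromosome 6, 48569696 to 48572789, minus strand), was not called in any comparison. Its FPKM were 245, 354 and 379 in ND, 321, 395 and 312 in HFD, 350, 400 and 389 in CLE and 385, 445 and 479 in LU. ND and HFD overlapped, and the LU mice were all above the ND mice and overlapped HFD. The log2 fold change with HFD was 0.09 (95% interval -0.26 to 0.44, limma adjusted p = 0.661), and for LU against ND it was 0.44 (0.09 to 0.79, adjusted p = 0.0953). Without the letter R libraries the latter was 0.91 (adjusted p = 0.0333), a call that rests on ND mouse 2 alone. *Rarres2* overlaps *Lrrc61* on the opposite strand, and whether strand was used in the quantification was not given in the sources used here.

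*Nampt*, which encodes the rate-limiting enzyme of NAD salvage and is also secreted as visfatin (chromosome 12, 32819545 to 32853349, plus strand), had FPKM of 31.5, 27.8 and 24.9 in ND, 29.9, 33.0 and 28.1 in HFD, 26.5, 29.1 and 23.3 in CLE and 23.5, 23.3 and 23.1 in LU. The LU mice were close together and below all ND and HFD mice, and the other groups overlapped. LU against HFD gave -0.36 (SE 0.11, adjusted p = 0.026), which passed the adjusted p but not the fold change. HFD against ND gave 0.11 (95% interval -0.12 to 0.34, adjusted p = 0.405), and CLE against HFD -0.20 (-0.43 to 0.03, adjusted p = 0.168). *Nampt* overlaps *Gdap10* on the same strand.

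*Apln*, the gene of apelin, a peptide ligand that acts on vessels and the heart (chromosome X, 48025146 to 48034853, minus strand), was the lowest detected member. Its FPKM were 4.19, 3.77 and 9.73 in ND, 3.49, 2.83 and 6.57 in HFD, 9.50, 8.40 and 15.8 in CLE and 12.1, 12.5 and 10.3 in LU. ND and HFD overlapped, and all CLE and LU mice were above all HFD mice. HFD did not separate from ND, at -0.34 (95% interval -1.06 to 0.38, limma adjusted p = 0.405). *Apln* rose by 1.22 with CLE (SE 0.33, adjusted p = 0.014), from 4.30 ± 1.99 to 11.2 ± 3.97 (SD, n = 3), and by 1.32 with LU (adjusted p = 0.0126), to 11.7 ± 1.16. The CLE call was lost without CLE mouse 11 (adjusted p = 0.0503), HFD mouse 12 (0.0509) or HFD mouse 15 (0.0585), and the LU call without HFD mouse 15 (0.0514). Against ND, *Apln* was at 0.88 in CLE (adjusted p = 0.134) and 0.98 in LU (adjusted p = 0.0746), and neither was called. The LU mice lay above all ND mice, while CLE and ND overlapped. ND mouse 4 had the most *Apln* of its group and also the most mesothelial marker FPKM, with a sum of 63.8 against 12.0 and 23.4 in the other ND mice. LU mouse 3 likewise had the most of both in its group (17.8). HFD mouse 18 had the most *Apln* but the lowest mesothelial sum of its group (2.34). CLE mouse 11 had the most *Apln*, with a mesothelial sum of 7.87 against 12.7 in CLE mouse 2. The endothelial marker sum was highest in ND mouse 4 (322), HFD mouse 18 (266) and CLE mouse 11 (360), the mice with the most *Apln* of their groups. In LU it was highest in mouse 2 (344) and lowest in mouse 3 (282), the LU mouse with the most *Apln*. The sum of the 5 endothelial genes was 198 to 322 in ND, 158 to 266 in HFD, 249 to 360 in CLE and 282 to 344 in LU, and *Kdr* and *Emcn* were called higher with both supplements and *Cdh5* with LU. The part of mesothelial and endothelial cells in the *Apln* values was not tested.

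*Itln1* (chromosome 1, 171518122 to 171535294, minus strand), the gene of the lectin omentin, was listed at 0 in all 12 libraries for each of its 3 transcripts and was not tested. A 0 in the table can be a failed estimate, since *Scd1*, a desaturase abundant in fat, was listed at 0 in 9 libraries and at 8592 to 10168 FPKM in the HFD libraries.

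With HFD against ND, 5 of the 8 tested genes were called, 1 higher and 4 lower, where 25.6% of all genes tested were called (14.9% higher and 10.8% lower). The groups did not overlap for these 5 members, as for 59.5% of all genes tested. With CLE against HFD, 6 were called, 5 higher (*Adipoq*, *Retn*, *Cfd*, *Rbp4* and *Apln*) and 1 lower (*Lep*), where the share of all genes was 16.5% (6.33% up and 10.1% down), and the groups did not overlap for 6 members and for 50.6% of all genes. With LU against HFD the count was 6, again 5 higher and 1 lower, where the share of all genes was 12.4% (4.81% up and 7.64% down), and the groups did not overlap for 7 members and for 47.6% of all genes. These comparisons share the HFD mice. The members, and the gene lists below, were chosen with earlier results of these data known. Their counts and medians beside those of all genes are therefore a description and not a test. The median log2 fold change of the members was -0.59 with HFD, 0.92 with CLE and 0.86 with LU, and that of all genes tested -0.02, 0.01 and 0.03.

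**Figure D3:**
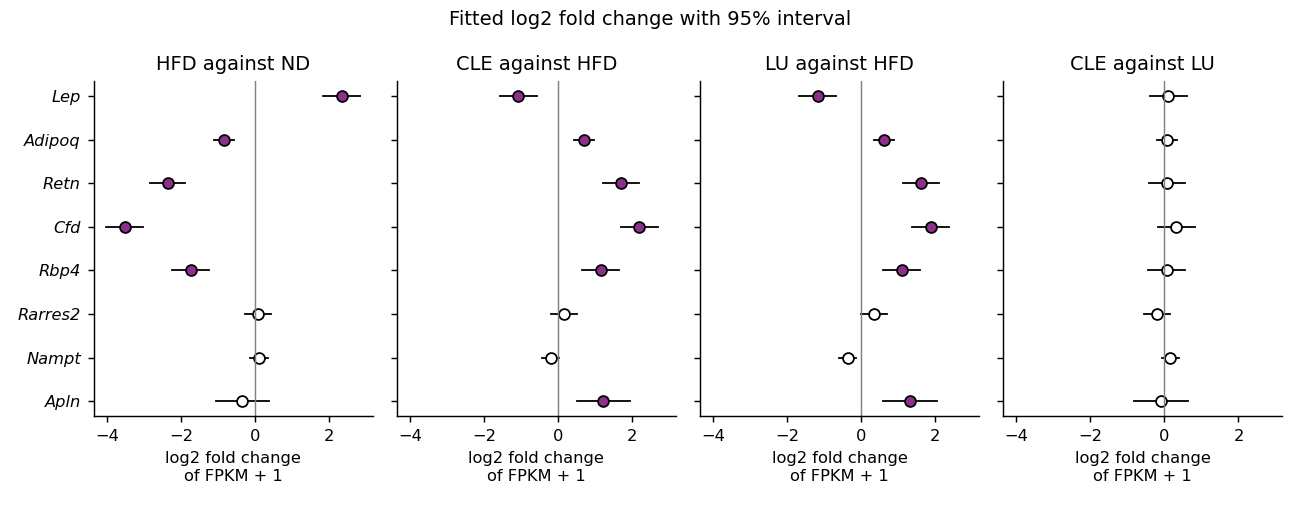
Fitted log2 fold change of FPKM + 1 (horizontal axis) for the 8 tested adipokine genes in 4 comparisons, with the 95% interval as a line and filled circles for called genes. *Lep* lies opposite to *Adipoq*, *Retn*, *Cfd* and *Rbp4* in the first 3 comparisons, and every interval of CLE against LU spans 0.

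No member was called between CLE and LU, where 1 of the 12775 genes was called (0.00783%). The groups overlapped for all 8 members, where they did not for 9.03% of all genes, the adjusted p ranged from 0.896 to 0.98, and no raw limma p was under 0.05. The 95% intervals allow a difference of some size. The widest were those of *Apln* at -0.10 (-0.81 to 0.62), *Rbp4* at 0.06 (-0.45 to 0.56), *Lep* at 0.10 (-0.40 to 0.60), *Cfd* at 0.32 (-0.17 to 0.82) and *Retn* at 0.07 (-0.41 to 0.56). *Rarres2* was at -0.20 (-0.55 to 0.15), *Adipoq* at 0.07 (-0.20 to 0.35) and *Nampt* at 0.16 (-0.07 to 0.40), so equality of the supplements is not shown. The extract and the flavonoid were given at different doses. Against ND, 2 members were called in CLE (*Lep* higher and *Cfd* lower), where 2.91% of all genes were called (2.06% higher and 0.853% lower), and 3 in LU (*Lep* higher, *Retn* and *Cfd* lower), where 6.59% were (4.97% higher and 1.62% lower). The groups did not overlap for 3 members in CLE and 7 in LU, against 24.7% and 30.1% of all genes. The difference between the CLE and LU counts was not tested. An exact two-sided permutation test over the 3 against 3 FPKM values gave p = 0.1 for each called member, the smallest that this design allows.

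Markers of several cell types moved with the same groups. Of 10 adipocyte genes that are not members, 5 were called lower with HFD (*Plin1*, *Plin4*, *Cidec*, *Lipe* and *Fabp4*) and 1 higher (*Dgat2*), 6 were called higher with CLE and 3 with LU, and their summed FPKM were 30172 to 31227 in ND, 18606 to 21199 in HFD, 26490 to 29672 in CLE and 24960 to 30190 in LU. All 10 macrophage genes were called higher with HFD and lower with CLE and with LU, with sums of 340 to 512 in ND, 2698 to 3125 in HFD, 608 to 972 in CLE and 994 to 1177 in LU. No defining marker of adipocytes was near 0. In whole tissue, fewer adipocytes and less mRNA per adipocyte cannot be told apart. Other lists moved as well. All 5 red blood cell genes were called lower with HFD, with sums of 571 to 2290 in ND, 188 to 308 in HFD, 273 to 1172 in CLE and 447 to 741 in LU. None was called with CLE or LU against HFD, although their median log2 fold change was 1.03 and 1.25. Of 7 mesothelial genes, 5 were called lower with HFD and 1 (*Lrrn4*) higher with each supplement, with sums of 12.0 to 63.8 in ND, 2.34 to 7.68 in HFD, 7.71 to 12.7 in CLE and 13.1 to 17.8 in LU. Of the 5 endothelial genes, 1 (*Emcn*) was called lower with HFD, 2 higher with CLE and 3 higher with LU. The liver genes *Alb* and *Serpina1c* were called lower with HFD and higher with CLE, at the low sums given above. The part of these cells in the adipokine values was not tested, other than by the scaling that follows.

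Scaling each library to the geometric mean of these 10 adipocyte genes moved the median of all genes to 0.40 with HFD, -0.41 with CLE and -0.28 with LU. Values are given as fitted and, where said, relative to this median. *Lep*, *Retn*, *Cfd* and *Rbp4* remained called in the same direction in all 3 comparisons, with *Cfd* at -3.04 with HFD, 1.73 with CLE and 1.53 with LU. *Adipoq* did not remain called, at -0.36 with HFD (limma adjusted p = 0.0458), 0.23 with CLE (0.185) and 0.27 with LU (0.149). Relative to the shifted median of all genes it was at -0.76, 0.64 and 0.55. Subtracting this shift largely undoes the scaling, so values relative to the median do not show *Adipoq* or *Nampt* against adipocyte markers. *Nampt* became called as lower with CLE (-0.65, adjusted p = 0.00141) and with LU (-0.70, adjusted p = 0.00162), at -0.25 and -0.43 relative to the median of all genes. In HFD against ND, *Nampt* was at 0.58 (adjusted p = 0.00239) and *Rarres2* at 0.57 (adjusted p = 0.0109), both under the fold change threshold. After this scaling, 4909 of all 12775 genes were called with HFD, 4003 with CLE and 2472 with LU. Without it, 3273, 2105 and 1590 were called. *Apln* remained called with CLE (0.83, adjusted p = 0.0394) and LU (1.03, adjusted p = 0.0223).

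**Figure D4:**
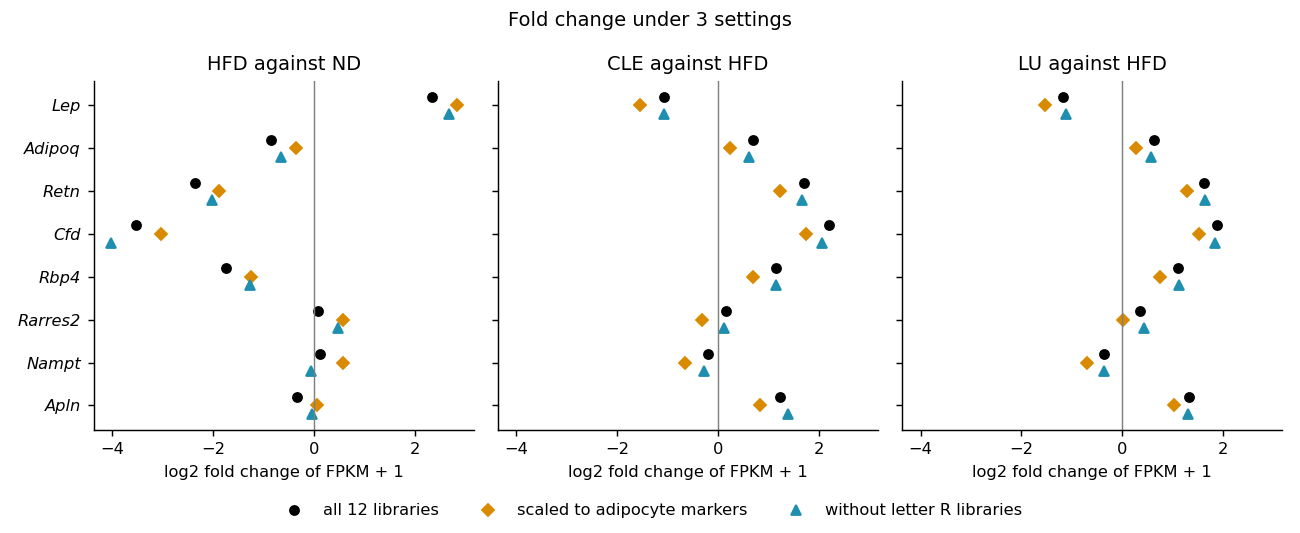
Log2 fold change of FPKM + 1 of the 8 adipokine genes in 3 comparisons, for all 12 libraries (circles), after scaling to adipocyte markers (diamonds) and without the libraries with the letter R (triangles). *Lep*, *Retn*, *Cfd* and *Rbp4* stay on their side of 0, *Adipoq* moves toward 0 after scaling, and *Rarres2* and *Nampt* stay within 1 unit of 0.

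When the letter R libraries were left out, 8 remained, with ND mouse 2 as the only ND mouse, assumed to vary like the other groups. With a single ND mouse in this fit, only fold changes are given. *Lep* was at 2.67 with HFD, *Adipoq* at -0.65, *Retn* at -2.02, *Cfd* at -4.02 and *Rbp4* at -1.27. With CLE against HFD, where each group kept at least 2 mice, *Lep* was at -1.08 and *Adipoq* at 0.61. *Retn* was at 1.66, *Cfd* at 2.06, *Rbp4* at 1.14 and *Apln* at 1.39. With LU against HFD, *Lep* was at -1.11, *Retn* at 1.64, *Cfd* at 1.83, *Rbp4* at 1.11 and *Apln* at 1.29. *Adipoq*, at 0.56, missed the fold change. Against ND, the *Lep* fold changes were larger than with all libraries, at 1.59 in CLE and 1.56 in LU, but were not called with a single ND mouse. *Cfd* was at -1.97 in CLE and -2.19 in LU.

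Receptors and pathway partners of the adipokines were taken as a list of 28 genes, of which 25 were tested. With HFD, 5 were called higher, 6 lower and 14 were not called, where 25.6% of all genes tested were called. *Adipor2*, the adiponectin receptor linked to PPARα signalling, was at 434 ± 51.5 FPKM in ND and 197 ± 4.49 in HFD (SD, n = 3; log2 fold change -1.13, limma adjusted p = 3.91e-05), and rose by 0.85 with CLE (adjusted p = 0.000628) and by 0.64 with LU (adjusted p = 0.00504). *Adipor1* was not called, at 74.7 ± 3.61 in ND and 68.6 ± 2.23 in HFD. *Cdh13*, which encodes T-cadherin, the adiponectin-binding cadherin, rose by 1.17 with CLE and by 1.13 with LU (adjusted p = 0.00326 and 0.0055), and was called lower with HFD although the ND and HFD mice overlapped. Adiponectin mRNA and those of its receptor *Adipor2* and its binding cadherin thus fell with HFD and rose with both supplements. The other adiponectin partners listed, *Erp44*, *Ero1l* and *Gstk1*, were not called in these comparisons. *Erp44* went the other way, at 0.33 with HFD (limma adjusted p = 0.0044) and -0.26 with CLE (0.0235), and so did *Ero1l*, at 0.28 with HFD (0.0115). *Gstk1* went the same way, at -0.52 with HFD (0.00436) and 0.40 with LU (0.0332). *Lepr*, the leptin receptor gene, was low at 1.88 ± 0.551 FPKM in ND, fell by 0.63 with HFD (adjusted p = 0.00223) and was not called with CLE or LU against HFD. After scaling to adipocyte markers, *Adipor2* remained called with HFD (-0.65, adjusted p = 0.00089) but not with CLE (0.39, 0.0233) or LU (0.29, 0.0909), and *Cdh13* remained called with CLE and LU but not with HFD (-0.32, 0.301).

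**Figure D5:**
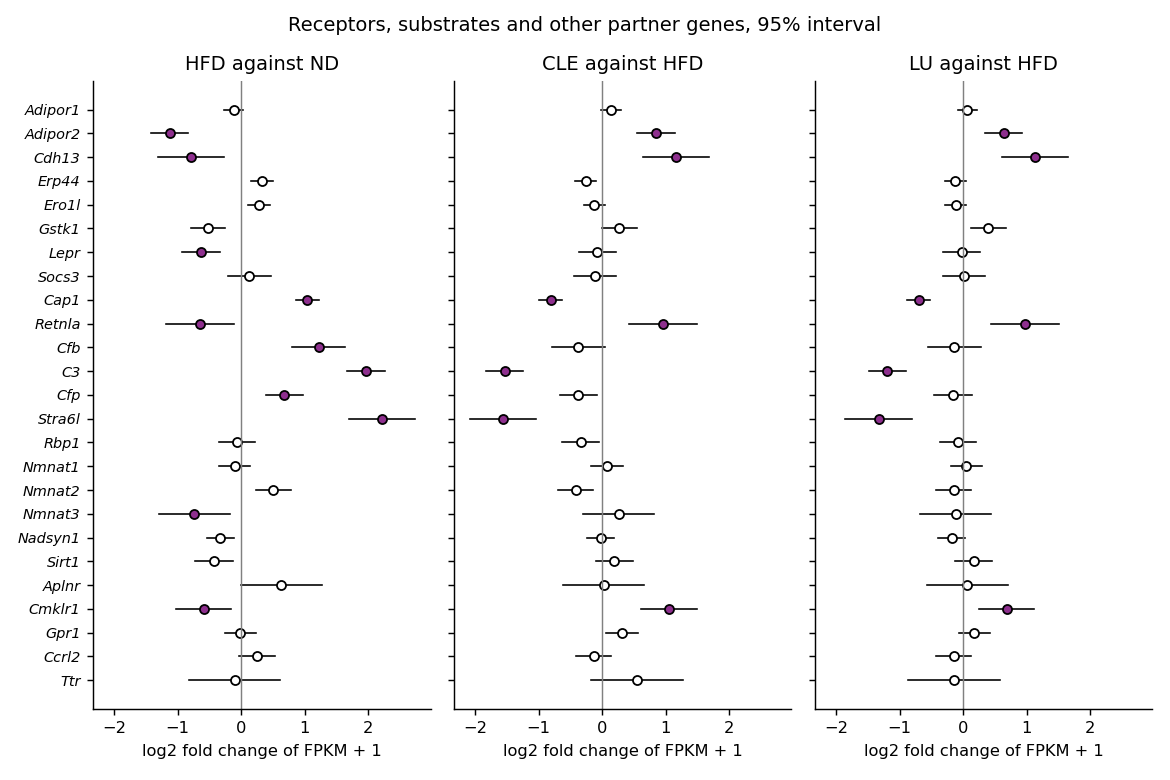
Fitted log2 fold change of FPKM + 1 with its 95% interval for the 25 tested partner genes (vertical axis) in 3 comparisons, filled circles for called genes. *C3*, *Cap1* and *Stra6l* lie right of 0 with HFD and left of 0 with CLE and LU, and *Adipor2* and *Cdh13* the other way.

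Of the complement genes beside *Cfd*, *C3* was called in all 3 comparisons, and *Cfb* and *Cfp* with HFD alone among them. *C3*, the central complement protein, was at 209, 245 and 212 FPKM in ND, 895, 853 and 861 in HFD, 264, 308 and 329 in CLE and 431, 302 and 420 in LU. All HFD mice were far above the rest, with log2 fold changes of 1.97 with HFD (limma adjusted p = 1.04e-06), -1.54 with CLE (2.57e-05) and -1.19 with LU (0.000208). *Cfb*, the factor that adipsin cleaves, rose by 1.22 with HFD (adjusted p = 0.000289), from 110 ± 27.4 to 253 ± 24.6, and was not called with CLE (-0.38, adjusted p = 0.152) or LU (-0.14, adjusted p = 0.633). *Cap1*, reported as a resistin receptor, rose by 1.05 with HFD (adjusted p = 2.62e-06) and was lower with CLE (-0.81, adjusted p = 4.9e-05) and LU (-0.70, adjusted p = 0.000249). *Retnla*, a relative of resistin, was called lower with HFD (-0.64, adjusted p = 0.045), although the ND and HFD mice overlapped. It was higher with CLE (0.96, adjusted p = 0.0107) and LU (0.97, adjusted p = 0.013). *Stra6l*, a receptor gene for retinol-binding protein 4, had FPKM of 0.0234, 0 and 0.0230 in ND, 3.96, 3.26 and 4.04 in HFD, 0.261, 0.269 and 1.56 in CLE and 0.714, 0.624 and 1.39 in LU. It was thus detected at a low level, mostly in HFD mice, opposite to *Rbp4*, with a log2 fold change of 2.22 with HFD (adjusted p = 1.95e-05), -1.57 with CLE (0.000509) and -1.33 with LU (0.00222). *Cmklr1*, the chemerin receptor gene, was lower with HFD (-0.59, adjusted p = 0.0279). It rose by 1.06 with CLE (adjusted p = 0.00196) and by 0.69 with LU (0.0252), while *Rarres2* itself was not called. *C3*, *Cap1* and *Stra6l* remained called in the same direction in these 3 comparisons after scaling to adipocyte markers, whereas *Cmklr1* did not with LU (0.34, adjusted p = 0.217) and *Retnla* did not with CLE (0.50, adjusted p = 0.0741). No partner gene was called between CLE and LU. Against ND, 2 were called in CLE and 5 in LU, where 2.91% and 6.59% of all genes were called. The median of the list was -0.07 with HFD, -0.02 with CLE and -0.08 with LU.

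A second list held 33 other secreted factors of adipose tissue, of which 27 were tested. With HFD, 9 were called higher and 6 lower, where 25.6% of all genes tested were called. The share of all genes was 16.5% with CLE and 12.4% with LU. The largest changes were of *Saa3*, an acute-phase protein (4.61, limma adjusted p = 5.92e-05, from 4.11 ± 3.23 to 102 ± 25.5 FPKM), *Spp1*, osteopontin (4.58, adjusted p = 3.42e-06, from 0.522 ± 0.447 to 34.4 ± 1.85), *Metrnl* (2.21, adjusted p = 1.56e-06), *Nrg4*, a factor that acts on liver (-1.93, adjusted p = 1.73e-05, from 89.0 ± 8.73 to 22.6 ± 2.70), and *Sfrp5*, a Wnt antagonist (1.78, adjusted p = 0.000744). With CLE, 7 were called higher and 9 lower, led by *Spp1* (-3.33), *Saa3* (-2.37), *Lcn2* (-1.81), *Metrnl* (-1.64) and *Nrg4* (1.57). With LU, 6 were called higher and 4 lower, led by *Spp1* (-2.29), *Metrnl* (-1.26), *Bmp4* (1.15), *Nrg4* (1.08) and *Agt* (0.99). None was called between CLE and LU. *Sfrp5* was not called with either supplement against HFD and stayed 1.84 above ND in both CLE (adjusted p = 0.0148) and LU (0.00442). The median of the list was 0.14 with HFD, 0.01 with CLE and 0.06 with LU.

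The members together held 1.97% to 2.50% of the FPKM of all genes in ND, 0.793% to 0.893% in HFD, 1.22% to 1.57% in CLE and 1.19% to 1.32% in LU, with *Cfd* the largest part in every ND mouse. The split of each gene's FPKM over its transcripts differed between genes. The main *Adipoq* transcript held 98.9% to 99.6% of the gene's FPKM and the main *Lep* transcript 94.3% to 98.2%. *Nampt* varied most, with 38.6% to 65.5% on its main transcript, on average 50.5% in ND, 62.8% in HFD, 53.2% in CLE and 53.9% in LU. *Retn* had 73.4% to 87.2% on its main transcript. An assembled variant that starts upstream, at 3655206, held on average 12.5% of *Retn* FPKM in ND, 20.6% in HFD, 16.1% in CLE and 16.9% in LU. These splits are estimates of the quantification and were not tested.

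The genes whose pattern over the 12 libraries was nearest to each member were found by the root mean square difference of mean-centred log2(FPKM + 1). For *Lep* they were *Specc1* (0.225), *Map1a* (0.226) and *Zfyve28* (0.239), where the spread of *Lep* itself was 0.871. For *Adipoq* they were *Rras* (0.0932), *Sgce* (0.0992) and *Tspo* (0.103), and for *Cfd* *2010016I18Rik* (0.220), *Cyp2e1* (0.313) and *Gsta4* (0.344). *Ffar4*, a fatty acid receptor gene, was the nearest gene to both *Retn* (0.227) and *Rbp4* (0.175). Its FPKM were 18.1, 25.2 and 20.3 in ND, 4.72, 6.15 and 4.53 in HFD, 16.3, 16.0 and 13.1 in CLE and 13.0, 14.5 and 9.68 in LU. All HFD mice were thus lowest and all ND mice highest, as for *Retn*. For *Rbp4* all HFD mice were lowest too, but ND mouse 2 (418) lay below CLE mouse 2 (444). The nearest to *Retn* after it were *Gsta3* (0.238) and *B430010I23Rik* (0.239), and to *Rbp4* *Tmem216* (0.206) and *Gm454* (0.214). The genes nearest to *Apln* were farther away, from *Galnt18* (0.346) to *Etl4* (0.355), against a spread of 0.683 for *Apln*. For *Rarres2* and *Nampt*, which varied little (0.241 and 0.169), they were *S100a11* (0.0898) and *Ncoa4* (0.0631).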

How the data were processed

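RNA of eWAT was sequenced by the authors from 12 mice, and the submitters' processing notes name CASAVA 1.8.2, Bowtie2 2.2.3, TopHat2 2.0.12 and Cufflinks 2.2.1. The genome build was not given in the sources used here. The authors deposited FPKM values for 152210 transcripts, and 3 FPKM columns that match no sample were not used, nor were the columns with the authors' own comparisons (fold changes, p-values and marks of called transcripts). Known identifiers were matched to GENCODE M21 (GRCm38), which held 77000 of 78786, with both ends identical for 87.6%. FPKM of annotated transcripts, and of assembled variants of them, were summed per gene. All 12 libraries entered 1 limma fit (limma 3.58.1, R 4.3.3) on log2(FPKM + 1), with a coefficient per group, no covariate and Benjamini-Hochberg adjustment within each of 6 contrasts. FPKM carry no depth, and no whole reads could be recovered, so no count test was run. Replicates are separate mice. Mouse numbers do not pair groups. The members and lists were chosen with earlier results of these data known. Genes were named as all members, the called genes with the largest absolute log2 fold change (up to 5 per list and contrast), partner genes needed to describe a member's pathway, which were chosen after their values were seen, and the 3 nearest genes per member. Tables and plots were made with Python 3.11.15, pandas 2.3.3, numpy 2.4.6 and matplotlib 3.10.9. Alternatives were other pseudocounts, filters, scalings, weights and fits, the letter R, single transcripts and leaving out each mouse.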

Additional observations from a re-analysis of the deposited data

How the results depend on the processing

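The *Lep*, *Retn*, *Cfd* and *Rbp4* calls of HFD against ND, CLE against HFD and LU against HFD kept their direction and passed the threshold in all 27 alternatives, with *Cfd* at -4.02 to -3.04, 1.73 to 2.39 and 1.53 to 2.01 on the log2 scale. The number of members called in CLE against ND was 2, where 372 of all 12775 genes tested were called. In a fit of only the groups compared it was 0, where 0 of all genes were called. With a replicate block it was 0, where 2 of all genes were called. Without the letter R libraries, which leave 1 ND mouse, *Lep* was at 1.59 and *Cfd* at -1.97. Leaving out 1 mouse gave 1 to 3 members, with *Lep* lost without CLE mouse 11 (adjusted p = 0.0564) or ND mouse 2 (0.0535). The genes called without these mice numbered 127 and 124 of all tested. *Apln* was gained without ND mouse 4 (adjusted p = 0.0409). In LU against ND, *Apln* was gained without that mouse too (1.35, adjusted p = 0.0149), where 965 of all genes were called. Scaling to adipocyte markers also gained it there (1.09, adjusted p = 0.0441), where 1023 were called, against 842 in the main fit. The mouse numbers mark separate animals and do not pair them. With the replicate block, for numbers that 2 groups share, the calls lost were *Lep* (1.08, adjusted p = 0.15) and *Cfd* (-1.15, 0.181) in CLE against ND and *Retn* (-0.65, 0.0754) in LU against ND. Scaling to adipocyte markers turned the sign of *Adipoq* (-0.043), *Lep* (-0.019), *Rbp4* (-0.059) and *Retn* (-0.046) in CLE against LU, of *Apln* in HFD against ND (0.054) and of *Rarres2* in CLE against HFD (-0.31). Quantile normalization turned *Adipoq* in CLE against LU (-0.066), leaving out letter R libraries *Apln* in CLE against LU (0.098) and *Nampt* in HFD against ND (-0.057), and array weights *Nampt* in CLE against ND (0.013) and *Rarres2* in HFD against ND (-0.013). None of these values was called before or after. Leaving out single mice turned signs in CLE against LU of *Adipoq* (-0.0085 to 0.19), *Apln* (-0.35 to 0.070), *Lep* (-0.11 to 0.37), *Rbp4* (-0.046 to 0.17) and *Retn* (-0.077 to 0.24), and in HFD against ND of *Apln* (-0.63 to 0.027) and *Rarres2* (-0.10 to 0.21). The cause was not tested. FPKM without counts limit what can be said of *Itln1* and of low values.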
